A study of Homo sapiens and Mus musculus with 7 samples.

Results

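The regions described are 763 small KAP1 peaks in peak-poor stretches of the genome of mouse erythroblasts, out of 45024 sites in the deposited list, of which 44780 are on autosomes. Each autosomal peak was put in the 1 Mb window that holds its start. Windows with 1 to 4 peaks in all were kept, and a peak in them was a member when its score was below 100 and its width below 1300 bp. The members thus made up 1.70% of the autosomal peaks (95% Wilson interval 1.59 to 1.83%). Score, width and the number of peaks per window chose the members, so their values are given as a description, with no test.

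The study mapped KAP1 by chromatin immunoprecipitation and sequencing (ChIP-seq) in bone marrow cells sorted for CD71 (the transferrin receptor) and Ter119 (a red cell surface marker), a combination that selects maturing erythroblasts. The mice were 8 to 12 weeks old, of mixed strain, and are labelled KAP1 WT, with the alleles Kap-flox and stopfloxYFP; no Cre driver is given for them, and whether animals were pooled is not given. There was 1 KAP1 library, 1 IgG control library and 1 library of total input chromatin, and these 3 labels point to 1 peak list. The antibody was raised in rabbit against residues 20 to 418 of KAP1, chromatin was fixed with 1% formaldehyde, and fragments of 200 bp from 10 ng of DNA were amplified for 18 cycles. The series also has 4 RNA libraries from the human line HEL, which say nothing of mouse regions and were not used. The list gives no reads, so the depth behind a peak is unknown, and peaks or values of the IgG and input libraries were not analysed here, so no background stands beside the KAP1 peaks. Expression in the sorted mouse cells was not analysed here, so their label could not be checked against marker genes. With 1 KAP1 library, no difference below has a replicate check, and peaks of 1 library are not replicates of a condition. Intervals on shares and medians cover counting error only and treat neighbouring peaks as independent.

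KAP1, the product of Trim28, does not bind DNA by itself. It is brought to its sites by KRAB zinc finger proteins, which read the DNA sequence, and it gathers a histone methyltransferase and heterochromatin protein HP1 that keep the surrounding chromatin silent. The sites best known for this are endogenous retroviruses, imprinted control regions and the genes of zinc finger proteins themselves, and in red cell formation KAP1 is needed for normal erythroblast maturation.

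In the deposited list, whose name says that repeats were left out, most windows were far richer in peaks than those of the members. Whether left-out repeats lowered the number of peaks in sparse windows was not tested. Between the first and the last peak of each autosome there were 2424 windows, with a median of 17 peaks (quartiles 8 and 28) and at most 55. The sparse windows numbered 281, or 11.6% of them, and 24 more windows held no peak. By number of peaks, 32 sparse windows held 1 peak, 62 held 2, 87 held 3 and 100 held 4. Each of the 19 autosomes has 1 first and 1 last window with a peak. Of the 19 first windows 2 were sparse, and of the 19 last windows 6 were, where the share over all windows was 11.6%.

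**Figure D1:**
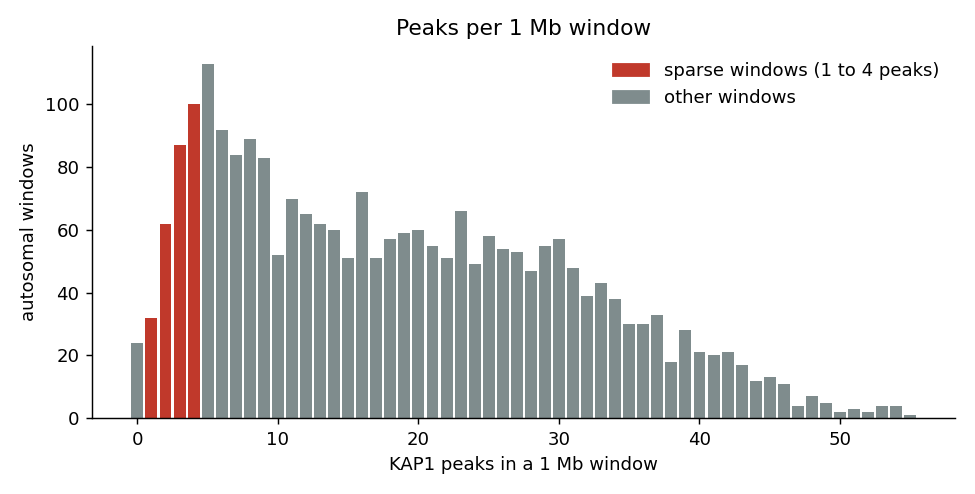
Number of autosomal 1 Mb windows (y axis) by the number of KAP1 peaks they hold (x axis), with the sparse windows in red. The 281 windows with 1 to 4 peaks form the left flank of a broad distribution with a median of 17.

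Nearly every sparse window carried a member. Of 817 peaks in these windows, 763 were members, and 280 of the 281 windows had at least 1. Peaks within the limits of score and width were thus 93.4% of the peaks in sparse windows, and they were 89.8% in other windows, so most windows of any kind hold mainly such peaks. In 232 windows every peak was a member. The member windows held 1 member in 39 cases, 2 in 76, 3 in 88 and 4 in 77. Windows with a single peak gave 31 members, windows with 2 peaks 117, windows with 3 peaks 242 and windows with 4 peaks 373, so most members had at least 2 other peaks in their own window.

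The members were small and low in score, as the rule asks, and within the limits their scores were spread much like those of small peaks in other windows. Their score, the authors' own value per peak, ran from 50.03 to 99.28 with a median of 61.5 (95% interval 60.6 to 62.2), where the whole list starts at 50.00. Scores under 60 were held by 344 members, or 45.1%, and only 34, or 4.46%, scored 90 or more. Among the 39480 autosomal peaks within the same limits in windows with 5 or more peaks, these shares were 44.5% and 5.14%. Their width ran from 305 to 1296 bp with a median of 567 bp (95% interval 559 to 577), and the middle 80% of members lay between 424 and 750 bp. Together the members covered 447 kb.

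The member with the lowest score was chr1:6467721-6468430 in the mouse build mm9, with a score of 50.03 and a width of 710 bp. The narrowest, chr12:47990676-47990980, was 305 bp wide with a score of 95.55. The widest, chr14:3207431-3208726, was 1296 bp wide with a score of 51.83, and the next widest, chr9:17418835-17420129, was 1295 bp wide with a score of 97.00. Very wide members thus occurred at both ends of the score range.

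The limits of the rule cut through a continuous range of scores. The members just below the score limit were chr1:97304515-97305148 (99.28), chr14:95641286-95641844 (99.18) and chr3:118137074-118137714 (98.15). Just above it, and so left out, were chr10:65997962-65998830 (100.21), chr12:64285982-64287161 (101.78) and chr1:148807660-148808063 (101.93). The widest members were 1296, 1295 and 1262 bp wide, and 3 peaks of the sparse windows were left out for width, at 1399, 1547 and 2791 bp. Windows just over the limit, with 5 peaks, numbered 113 and held 532 peaks within the limits of score and width. Those had a median score of 60.04, a median width of 541 bp and a median distance to the nearest peak of 73.2 kb, against 81.7 kb for members in windows with 4 peaks.

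The 54 other peaks of the sparse windows were left out because 51 scored 100 or more and 3 were 1300 bp wide or more, with 0 doing both. They lay in 49 windows. The highest scored was chr2:85111235-85112183 with 170.61, followed by chr3:80670645-80671305 with 157.11 and chr15:70895865-70896615 with 152.22. Sparse windows thus held no peak above 170.61, while autosomal peaks in the whole list reach 1558.86. These maxima come from 817 and 44780 peaks, and the larger set is the likelier to hold extreme scores. Peaks with a score of 100 or more were 6.24% of the peaks in sparse windows (95% Wilson interval 4.78 to 8.11%) and 8.07% elsewhere (7.82 to 8.33%), and these intervals overlap.

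The rule does not use the distance to the next peak itself. It does use the number of peaks per window, which largely sets that distance. The distances are thus a description of how far the name "isolated" fits. The median member lay 125 kb from the nearest other peak of any kind (95% interval 108 to 137 kb; quartiles 44.1 and 228 kb). The 39480 autosomal peaks within the same limits of score and width in windows with 5 or more peaks, called small peaks elsewhere, had a median of 12.5 kb. Members alone in their window had a median of 321 kb. It was 178, 145 and 81.7 kb for members of windows with 2, 3 and 4 peaks.

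**Figure D2:**
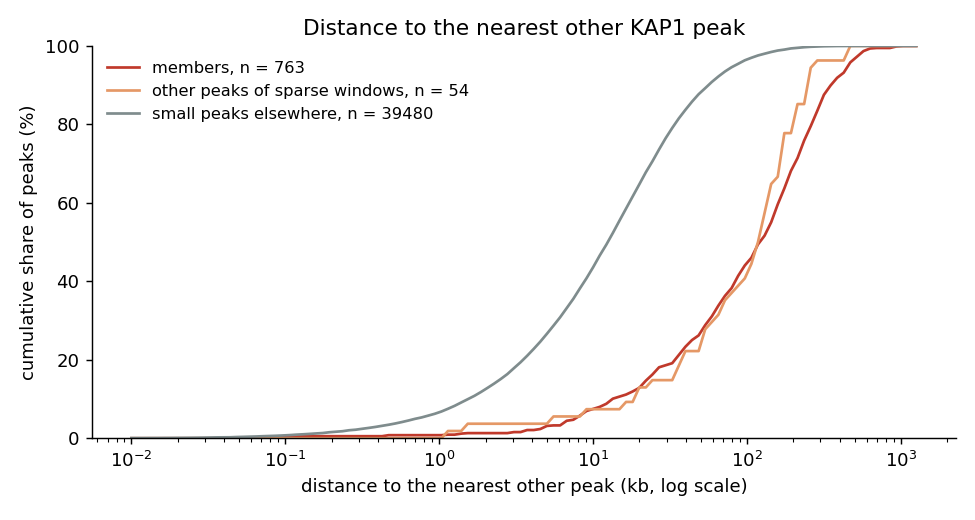
Cumulative share of peaks (y axis, %) by distance to the nearest other peak of any kind (x axis, kb, log scale), for the 763 members, the 54 other peaks of the sparse windows and the 39480 small peaks in windows with 5 or more peaks. The members' curve crosses 50% near 125 kb and that of the small peaks elsewhere near 12.5 kb.

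The members were not all isolated. Another peak lay within 10 kb of 57 members, or 7.47% (95% Wilson interval 5.81 to 9.56%), and within 100 kb of 337, or 44.2% (40.7 to 47.7%). The same shares were 43.6% and 96.6% for small peaks elsewhere. At the other end, 25 members had no other peak within 500 kb, as did 3 small peaks elsewhere. The name thus fits the window around a member better than its nearest surroundings, and some members were close neighbours inside an otherwise thin window.

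The closest pairs, chosen after their values were seen, showed this most plainly. On chromosome 4, chr4:68847172-68847610 and chr4:68847679-68848212, with scores of 62.1 and 78.0, were 0.068 kb apart, and the next peak beyond the second was 840 kb away. On chromosome 1, chr1:48226935-48227343 and chr1:48227437-48227922, with scores of 55.1 and 61.2, were 0.093 kb apart and the only peaks of their window, with 398 kb free on one side and 870 kb on the other. Both peaks of such a pair count as members.

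The windows have fixed edges, so a member can sit beside a crowded window. The nearest other peak lay in another window for 160 of the 763 members. It was a member for 605, one of the 54 other peaks for 49, and a peak of a window with 5 or more peaks for 109. Counted in a stretch centred on the member, the number of other peaks within 500 kb on either side had a median of 3 (quartiles 2 and 4, range 0 to 21), against 26 for small peaks elsewhere. At most 3 such peaks surrounded 503 members, or 65.9%, while 24 members had 10 or more and were thus beside a crowded stretch. The rule limits the number of peaks per window, which largely sets the count in such a stretch. The contrast with small peaks elsewhere, whose windows hold more peaks by the rule, is therefore only a description.

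Peaks with a score of 100 or more were far from most members, as peaks of any kind tended to be. The nearest peak with a score of 100 or more was at a median of 1268 kb (quartiles 676 and 1993 kb), and at 168 kb for small peaks elsewhere. It lay within 100 kb of 26 members, or 3.41%, and of 35.5% of small peaks elsewhere. The rule favours this, since few peaks of any kind are near a member. The nearest peak of any kind was at a median of 125 kb, against 12.5 kb for small peaks elsewhere. Whether high scored peaks were further away than the number of peaks alone would give was not tested.

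The members furthest from any other peak were led by chr1:68508556-68509037, a peak of 482 bp with a score of 50.53 and 1090 kb and 1030 kb free of peaks on its 2 sides. It was the only peak of its window. Next came chr16:82958359-82958921 (score 62.24, nearest peak at 895 kb), chr6:46005928-46006414 (66.97, 871 kb) and chr14:7436959-7437522 (56.67, 856 kb). The next was on chromosome 18 (68.55, 645 kb). Of these 5 members, 3 scored above the members' median of 61.5.

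After these came 3 members between 604 and 629 kb from the nearest peak: chr12:63656923-63657415 (score 54.62), chr12:47220416-47221269 (65.08) and chr16:81200127-81200809 (53.56). The last 4 of the first 12 were chr5:62358369-62358939 (51.09, 585 kb), chr4:18759714-18760351 (53.39, 583 kb), chr6:63572079-63572645 (79.04, 568 kb) and chr12:14715131-14715701 (61.22, 559 kb). Chromosome 12 gave 3 of the 12, and 34 of all 763 members. Of the 12, 4 were alone in their window, as were 31 of all 763 members, and being alone itself favours a large distance. By contrast, chr16:81200127-81200809 shared its window with 3 other peaks.

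A long stretch without peaks lowers the count of the windows it touches, so the rule itself favours members at its edges, and the counts that follow are a description. Of 45 autosomal gaps of at least 1 Mb between neighbouring peaks, 35 had a member on at least 1 side and 17 on both. The longest with members on both sides was 2.34 Mb, between peaks ending at 81575023 and starting at 83915650 on chromosome 5. The longest of all, 7.10 Mb on chromosome 7 between 39299544 and 46396391, had no member at either edge. These are gaps in a list that leaves out repeats. No mm9 genome was used, so whether reads could be placed in them was not tested.

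Width, within the limits that both groups obey, was lower in members than in small peaks elsewhere, while the scores were close. The median widths were 567 and 631 bp (95% intervals 559 to 577 and 629 to 633 bp). The median scores were 61.5 and 61.7, and their intervals overlap. At like score the members were still narrower: with scores of 50 to below 60 the medians were 566 bp in 344 members and 600 bp in 17570 others, and from 60 to below 70 they were 546 and 637 bp. Bands from 70, 80 and 90 gave 610 against 671, 628 against 706 and 669 against 759 bp. The intervals of the 2 medians met at 699 bp in the band from 80, which held 56 members, and overlapped in the band from 90, which held 34.

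This difference in width was part of a gradient over all windows. Over all autosomal peaks, with no limit on score or width, the median width was 566, 569, 581 and 573 bp in windows with 1, 2, 3 and 4 peaks, and 567 bp in windows with 5 to 9. It was 598 bp in windows with 10 to 19 peaks, 635 bp with 20 to 29, 684 bp with 30 to 39 and 741 bp with 40 to 55. The median score differed less, between 58.8 in windows with 1 peak and 63.9 in those with 40 to 55. High scores did become more frequent. Peaks scoring 100 or more were 6.70% in windows with 5 to 9 peaks (95% Wilson interval 5.88 to 7.63%). With 40 to 55 peaks they were 9.06% (8.39 to 9.78%). Peaks of 1300 bp or more were 0.367% of the peaks in sparse windows (3 of 817; 95% Wilson interval 0.125 to 1.07%) and 3.32% of those elsewhere (3.15 to 3.49%). The narrow widths of the members were therefore shared by windows with 5 to 9 peaks, which the rule leaves out.

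**Figure D3:**
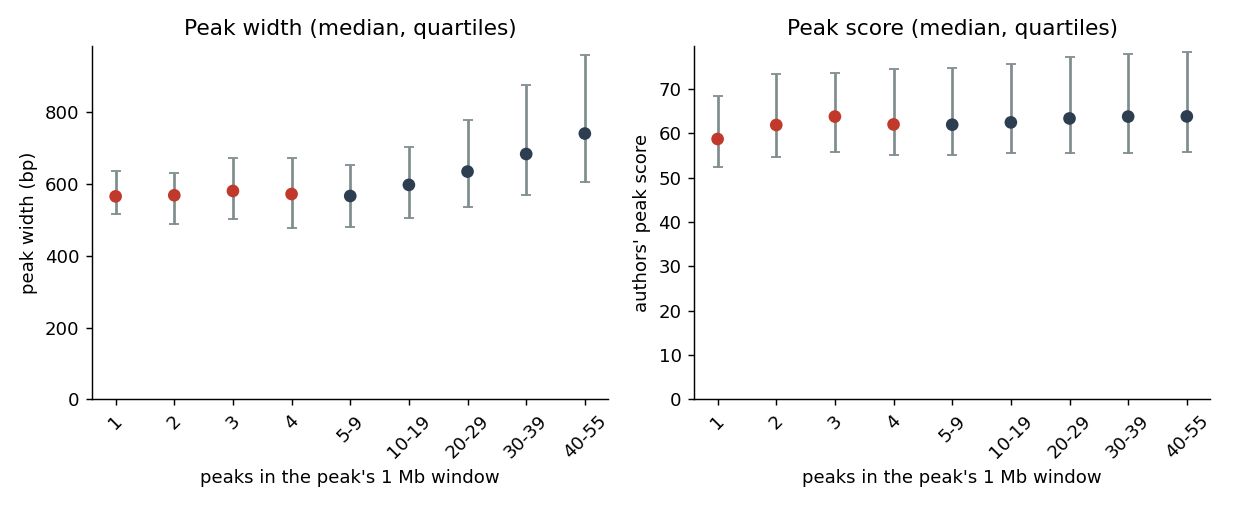
Median peak width in bp (left) and median authors' score (right), with bars from the lower to the upper quartile, over all autosomal peaks grouped by the number of peaks in their 1 Mb window (x axis); sparse windows are red. Median width is between 566 and 581 bp up to 9 peaks per window and reaches 741 bp at 40 to 55, while the median score stays between 58.8 and 63.9.

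Number of peaks in the window made little difference among the members themselves. Median widths were 568, 567, 570 and 565 bp for members of windows with 1, 2, 3 and 4 peaks, and median scores 58.7, 61.5, 62.4 and 61.5. The 31 members alone in their window had the lowest median score.

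More peaks in a window of fixed size tend to span more of it. The spread of the peaks of a sparse window by their number is therefore only a description. The stretch from the first to the last peak had a median of 231 kb in windows with 2 peaks (range 0.988 to 896 kb), 518 kb with 3 and 594 kb with 4. All peaks lay within 100 kb in 15 of 62 windows with 2 peaks, 5 of 87 with 3 and 3 of 100 with 4.

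Sparse windows often came next to other poor windows. The count in neighbouring windows is not used by the rule. Windows 1 Mb away from a sparse window held a median of 5 peaks (quartiles 3 and 9), and 41.9% of them held 4 or fewer. Around windows with 5 or more peaks the median was 19 and that share 8.17%. The gap narrowed with distance: at 2 Mb the medians were 8 and 19, at 5 Mb 13 and 17, at 10 Mb 15 and 17, and at 20 Mb 16 and 17. In the median, lower counts around sparse windows thus extended over a few megabases. This did not hold for every window: at 2 Mb the upper quartile was 16 peaks. There 26.8% of windows held 4 or fewer, against 10.5% around windows with 5 or more peaks.

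**Figure D4:**
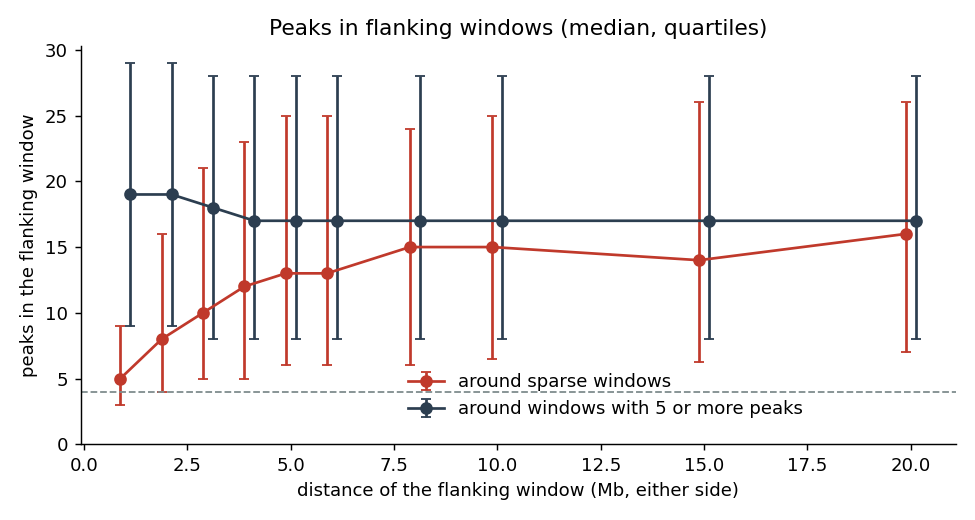
Peaks in windows flanking a sparse window (red) or a window with 5 or more peaks (dark), as medians with bars from the lower to the upper quartile (y axis), by distance in Mb on either side (x axis); the dashed line marks 4 peaks. The red medians go from 5 at 1 Mb to 16 at 20 Mb and the dark ones go from 19 to 17.

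Adjacent windows with 4 or fewer peaks, empty ones included, were joined into 176 runs, of which 169 held members. In runs of 2 windows or more lay 494 members, or 64.7%, and 269 lay in runs of 1 window. Runs of at least 4 windows numbered 11 with members and held 139 of them.

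The longest run was on chromosome 14, from 92000001 to 99000000, with 23 peaks in 7 windows, and all 23 were members. Their scores ran from 50.04 to 99.18 with a median of 62.1, and their widths from 375 to 975 bp with a median of 506 bp. They were grouped rather than evenly spread: 17 of the 23 had another peak within 100 kb, and a stretch of 1.80 Mb without peaks lay between chr14:93491152-93491812 (score 71.75) and chr14:95293824-95294359 (54.71). The window before the run held 5 peaks and the one after it 16.

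The second run, on chromosome 1 from 100000001 to 106000000, held 19 peaks, all members, with scores from 51.23 to 79.67. Their median distance to the nearest peak was 141 kb, against 38.6 kb in the run on chromosome 14, and 5 of the 19 had a peak within 100 kb. On chromosome 5, from 79000001 to 85000000, all 11 peaks were members, with scores from 50.63 to 87.59. That run held the 2.34 Mb gap named above, and chr5:79031556-79032266 was its highest scored peak (87.59). The fourth, on chromosome 7 from 40000001 to 46000000, held 0 peaks and no member. Runs of like length thus differed in how their peaks were spaced.

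Members lay on 18 of the 19 autosomes, with a median of 34 per chromosome. Chromosome 1 held 89, chromosome 6 held 77, chromosome 14 held 63, chromosome 4 held 61 and chromosome 5 held 58, which together is 45.6% of all. As a share of the chromosome's own peaks, chromosome 14 was highest with 3.24% (95% Wilson interval 2.54 to 4.13%), followed by chromosome 16 with 3.06% (2.31 to 4.05%), chromosome 6 with 2.95% (2.37 to 3.67%) and chromosome 1 with 2.92% (2.38 to 3.58%). The intervals of these 4 overlap widely, so their order is not settled. The shares also depend on where windows begin. With windows shifted by 0.5 Mb, chromosomes 6 and 1 fell below their intervals, to 1.99 and 2.20%. Chromosomes 14 and 16 stayed inside theirs, at 3.09 and 3.32%.

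At the low end, chromosome 9 had 10 members among 2709 peaks, or 0.369% (0.201 to 0.678%), chromosome 11 had 18, or 0.602%, chromosome 13 had 16, or 0.783%, and chromosome 2 had 29, or 0.852%. Chromosome 19 had no sparse window and so 0 members among 1351 peaks. Counting error alone gives an upper limit of 0.222% by 3 counts over the total. The Wilson interval used for the other chromosomes gives 0.284%. Neither covers the choice of limits: removing peaks under a score of 60 first gave 1.48%. Chromosomes 9 and 11 were rich in peaks, with 22.4 and 25.1 per window, against 15.8 on chromosome 14 and 16.0 on chromosome 16. Chromosome 13 was not, with 17.3. Over the 19 autosomes, the Spearman correlation between the share of members and peaks per window was -0.79. The rule, which counts peaks per window, partly sets this value. Where members did occur they were alike: the chromosomes' median scores lay between 57.1 and 65.5, and their median widths between 530 and 595 bp.

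**Figure D5:**
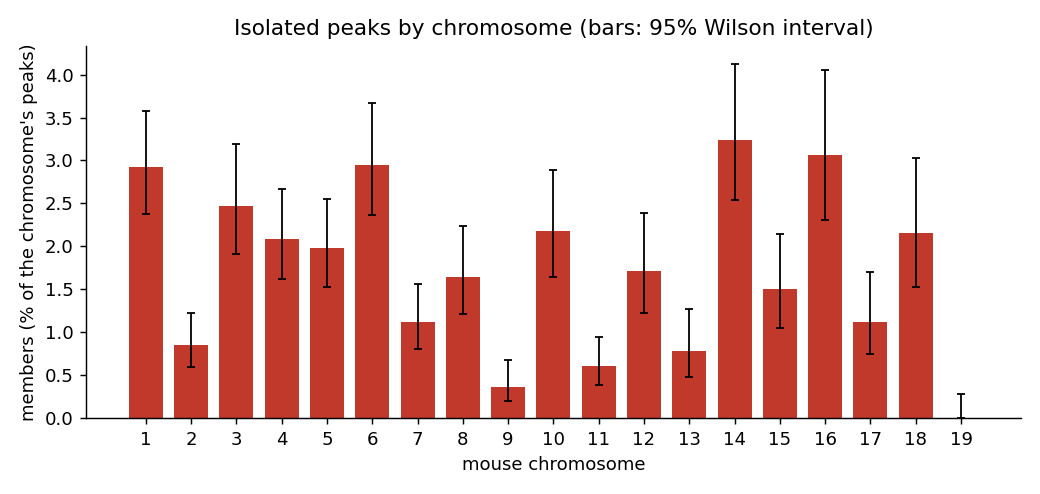
Members as a percentage of each mouse autosome's KAP1 peaks (y axis), with 95% Wilson intervals as error bars, by chromosome (x axis). Chromosomes 14, 16, 6 and 1 lie between 2.92 and 3.24%, chromosome 9 is at 0.369%, and chromosome 19 has none.

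The remaining chromosomes lay between these. Chromosome 3 had 57 members, or 2.47%, chromosome 10 had 47, or 2.18%, chromosome 18 had 32, or 2.15%, chromosome 12 had 34, or 1.71%, chromosome 8 had 40, or 1.65%, and chromosome 15 had 29, or 1.502%. Chromosomes 17 and 7 had 22 and 34, or 1.12% each. The median distance to the nearest peak ranged from 55.6 kb for the members on chromosome 4 to 239 kb for the 16 on chromosome 13.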

How the data were processed

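KAP1 ChIP-seq peaks of 1 library from sorted mouse erythroblasts were analysed. Bowtie and the build mm9 are named in the submitters' processing notes; the peak caller appears in the peak names as MACS, per the deposited list, while its version, thresholds, controls and filters are not stated in the labels or the file. The list's name says that repeats were left out, and how is not given; peak numbers run from 1 to 45024 with 0 missing. The score is the authors' value per peak in the deposited list, and how it was computed is not given. Starts, deposited 0-based, are printed 1-based.

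Windows, distances (edge to edge) and shares were computed with Python 3.11.15, pandas 2.3.3, NumPy 2.4.6 and SciPy 1.17.1, and the code was tested on simulated peaks. Intervals are Wilson for shares and binomial order statistics for medians, at 95%. No tests were run, and 12 alternatives for windows and limits were tried. Read depth is not known from the list. The members were chosen with earlier results of these data known. Members were named for the 12 largest distances to another peak, extremes of score and width, up to 3 peaks on each side of a limit, and the 4 longest runs. No mm9 genome or annotation was used, so base composition, promoters and genes at the members were not analysed here, although planned. The RPKM table of the human cells was not used.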

Additional observations from a re-analysis of the deposited data

How the results depend on the processing

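Each of 12 other ways to set the windows and limits was applied to the choice of members. The main values were 763 members, 1.70% of autosomal peaks, a median of 125 kb to the nearest other peak, 54 other peaks in the sparse windows, a longest run of 7 Mb, and medians that differed from those of small peaks elsewhere by -64 bp of width and -0.155 of score. With 1 to 3 peaks per window there were 390 members, 0.871% of peaks, at 163 kb, with 27 other peaks. With 1 to 5 there were 1295, 2.89%, at 91.8 kb, with 87 other peaks and a width difference of -75 bp. Windows of 0.5 Mb with 1 to 2 peaks gave 2.15%, 150 kb, -74 bp and a score difference of 0.34, the other way round. Windows of 2 Mb with 1 to 8 peaks gave 1.40% and 103 kb. Removing peaks under a score of 60 first gave 1315 members, 4.93%, 137 kb, 180 other peaks, a longest run of 19 Mb, -100 bp and a score difference of -1.69. A score limit of 80 gave 1.503% and 144 other peaks, and no score limit left 3 other peaks. A width limit of 1000 bp gave -50.5 bp and turned the score difference to 0.16. The lower width held in all 12, while the sign of the score difference did not. Shifted windows, midpoints, no width limit and merging of peaks within 1 kb moved none of these values beyond their interval or 1.5 times. The share of members with a peak within 100 kb ranged from 33.1 to 52.1%. Of 228 values for single chromosomes, 161 stayed inside their interval. Chromosome 19 had 0 members in 10 of the 12, 3 with windows of 0.5 Mb and 12 without peaks under a score of 60. Other distances to gene starts and other stretches for base composition were not run, since genes and sequence were not analysed here. No paired analysis was possible because there was 1 KAP1 library. Without reads, depth limits every score in an unknown way.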

Other observations

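The X chromosome was left out by the rule and was poor in KAP1 peaks throughout. It held 231 peaks in 164 windows from its first to its last peak, or 1.41 per window, against 18.5 on the autosomes. Of these windows 59 were empty, 91 held 1 to 4 peaks, and no window held more than 8. Within the members' limits of score, width and window were 140 of the 231 peaks, or 60.6% (95% Wilson interval 54.2 to 66.7%), where the highest autosome had 3.24%. These X peaks had a median score of 61.2 and a median width of 556 bp, near the members' 61.5 and 567 bp, and lay a median of 224 kb from the nearest other peak, with the furthest at 3490 kb. The strongest X peak scored 141.54. The Y chromosome held 13 peaks, of which 7 lay within the limits. The labels give no sex for the mice, and no test of the difference was run. Whether the number of X copies per cell bears on it was not tested.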
